A study of Homo sapiens with 6 samples.

Results

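Interferon-stimulated genes encode the proteins that cells make when interferons bind their receptors. The group described here is a fixed list of 47 such genes out of the 59679 genes on chromosomes 1 to 22, X and Y of the RefSeq gene table (GRCh38.p14), and all 47 were found in it by symbol. The measurement is chromatin accessibility by ATAC-seq, in which a transposase inserts adapters into open DNA, in NCI-H1703, an established line of lung squamous cell carcinoma. There were 3 libraries from cells with silenced DLGAP1-AS2, a long non-coding RNA (titled ASO, replicates 1 to 3), and 3 from control cells (titled NC, replicates 1 to 3), each from 10000 to 50000 cells. The labels give no treatment with interferon for either group, no time after silencing, and do not say whether the libraries came from separate cultures, so p-values measure only the spread between these libraries. A gene counted as having a gene-end peak when the midpoint of a called peak lay within 1 kb of either end of its span, and peaks overlapping the span plus 5 kb on each side were examined as well. Accessibility is not expression, and no RNA was measured in these files.

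Type I and type III interferons signal through the kinases JAK1 and TYK2 to a complex that holds STAT2 and IRF9 and binds a DNA element called the interferon-stimulated response element (ISRE). Interferon gamma signals through JAK1 and JAK2, and its targets carry a different element, the gamma-activated site (GAS). The induced genes include sensors of viral RNA, enzymes that degrade or edit RNA, proteins that block viral entry or replication, and the ubiquitin-like modifier ISG15 with its conjugation enzymes.

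The upstream sequences of 4 members show the range of promoters in the group. They are the 250 bases before the start site, from RefSeq (GRCh38.p14), written 5′ to 3′ along the gene. ISG15 (chr1:1013247-1013496, plus strand) and IFIT1 (chr10:89392373-89392622, plus strand) had a peak at the start site in all 6 libraries and hold ISRE letters, which are in capitals. IRF1 (chr5:132490774-132491023, minus strand) also had a peak in all 6 and holds GAS letters, again in capitals. IFI44L (chr1:78620198-78620447, plus strand) holds ISRE letters in capitals but had a peak within 1 kb of its start site in only 2 libraries.
ISG15: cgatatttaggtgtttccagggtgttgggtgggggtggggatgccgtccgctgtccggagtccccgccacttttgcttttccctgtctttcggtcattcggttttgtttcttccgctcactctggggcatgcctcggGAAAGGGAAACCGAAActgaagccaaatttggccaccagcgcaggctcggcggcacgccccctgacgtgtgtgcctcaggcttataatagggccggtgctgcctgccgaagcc
IFIT1: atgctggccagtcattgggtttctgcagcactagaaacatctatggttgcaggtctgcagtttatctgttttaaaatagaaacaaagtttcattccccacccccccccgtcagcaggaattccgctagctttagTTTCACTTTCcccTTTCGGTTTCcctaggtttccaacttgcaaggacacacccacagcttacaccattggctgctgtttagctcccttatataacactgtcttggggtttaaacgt
IRF1: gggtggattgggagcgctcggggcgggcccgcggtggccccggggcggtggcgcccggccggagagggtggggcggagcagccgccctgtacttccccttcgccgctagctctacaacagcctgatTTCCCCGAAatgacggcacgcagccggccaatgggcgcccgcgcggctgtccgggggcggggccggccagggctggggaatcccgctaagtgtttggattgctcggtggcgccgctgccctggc
IFI44L: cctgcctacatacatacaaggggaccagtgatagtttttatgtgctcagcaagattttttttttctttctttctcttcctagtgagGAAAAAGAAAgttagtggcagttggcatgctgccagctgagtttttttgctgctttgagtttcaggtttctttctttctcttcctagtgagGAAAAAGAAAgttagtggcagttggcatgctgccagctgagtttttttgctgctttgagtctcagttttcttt

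The letters searched were GAAA, any 2 bases and GAAA again, on both strands, for the ISRE, and TTCNNNGAA, which reads the same on both strands, for the GAS. Overlapping ISRE matches were counted separately, and the 2 motifs can overlap each other. The windows were the 300 bases from 250 before to 50 after the start site, which were found for 37 of the 47 members. ISRE letters were present in 22 of these 37 windows (59.5%), against 3.65% of all 27303 windows and 3.18% of the 15841 windows of protein-coding genes. GAS letters were present in 9 of 37 (24.3%), against 7.88% of all windows. In IFI44L the 2 ISRE matches lie 91 bases apart, and the 40 bases around them are identical. In IFI6 the 2 matches that lie 41 bases apart share their first 27 bases.

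The stretches around the ISRE letters of further members are shown to set those inside a called peak beside those outside one. The first 5 lay inside a peak in all 6 libraries and the last 3 in none or, for IFI27, in 1. They are at chr4:168318781-168318820 (DDX60, minus strand), chr12:112938316-112938355 (OAS3, plus), chr15:88638932-88638971 (ISG20, plus), chr7:93118091-93118130 (SAMD9, minus), chr4:88457030-88457069 (HERC5, plus), chr1:89065311-89065350 (GBP1, minus), chr13:42992267-42992306 (EPSTI1, minus) and chr14:94110613-94110652 (IFI27, plus). In HERC5, GBP1 and IFI27 the capitals mark a match on the opposite strand and read as the complement of the letters in reverse. The IFI27 stretch holds a second match, on the plus strand (chr14:94110641-94110650), left in lower case.
DDX60: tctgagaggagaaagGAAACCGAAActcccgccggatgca
OAS3: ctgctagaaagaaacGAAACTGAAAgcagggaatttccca
ISG20: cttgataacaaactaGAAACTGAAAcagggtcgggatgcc
SAMD9: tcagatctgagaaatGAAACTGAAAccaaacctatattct
HERC5: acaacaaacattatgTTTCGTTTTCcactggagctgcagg
GBP1: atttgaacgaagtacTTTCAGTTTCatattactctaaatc
EPSTI1: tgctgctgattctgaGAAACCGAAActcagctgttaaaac
IFI27: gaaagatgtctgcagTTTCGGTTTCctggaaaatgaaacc

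The 6 lists held 91346 to 170882 peaks on the chromosomes. Values given after silencing and in controls are always in the order of replicates 1, 2 and 3. Heights (the authors' pileup per peak) were not normalised between libraries. The list of control replicate 2 was the shortest and held no peak below a height of 3, where the other lists reached 2. The background coverage computed from the lists, a stand-in for depth, ran from 0.237 in silenced replicate 3 to 0.464 in control replicate 2, and silenced replicate 3 alone held the lowest height of 27 of the 31 members called in all 6 libraries. Its rank scores correlated with those of the other libraries at r = 0.815 to 0.833 across the 16993 genes tested below, which are not independent, and the other 5 libraries with each other at up to 0.907. Of the squamous markers, SOX2 and PERP had a gene-end peak in all 6 libraries, TP63 in 4 with heights of 2 to 5, DSG3 in 2, KRT5 and KRT14 in 1 each and KRT6A in 0. Of the leukocyte markers, LYZ and NKG7 had a gene-end peak in no library, CD14 in 1, PTPRC and CD3E in 2 each, and CD68 and SPI1 in all 6. The CD68 peak also lay within 1 kb of an end of EIF4A1 and cannot be assigned to one of the genes. Of the mesenchymal markers, VIM, CDH2, ZEB1 and FN1 had one in all 6, PDGFRA in 3 and COL1A1 in 0. These counts follow the gene-end rule alone and leave out other peaks in and around the genes. Within the span plus 5 kb, the tallest peak per library was 20 to 31 at TP63, 24 to 54 at KRT14 and 37 to 101 at PDGFRA. It was 11 to 34 at COL1A1, 9 to 23 at LYZ and 58 to 105 at NKG7. At KRT5, KRT6A and DSG3 no such peak was above 4.

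Most of the interferon-stimulated genes were accessible at a gene end in both groups. A gene-end peak was called in all 6 libraries at 31 members (66.0%), in 1 to 5 libraries at 13 and in none at 3. The background for a peak in all 6 libraries was 28.5% of all genes and 58.0% of the 20037 protein-coding genes, and 16.5% of protein-coding genes had a peak in none. Per library, 34, 37 and 33 members had a peak after silencing and 36, 37 and 39 in controls. The means were 34.7 ± 2.08 (SD, n = 3) and 37.3 ± 1.53 (SD, n = 3), and the ranges met at 37. Over all genes the means were 23900 ± 1711 (SD, n = 3) and 23887 ± 2086 (SD, n = 3).

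**Figure D1:**
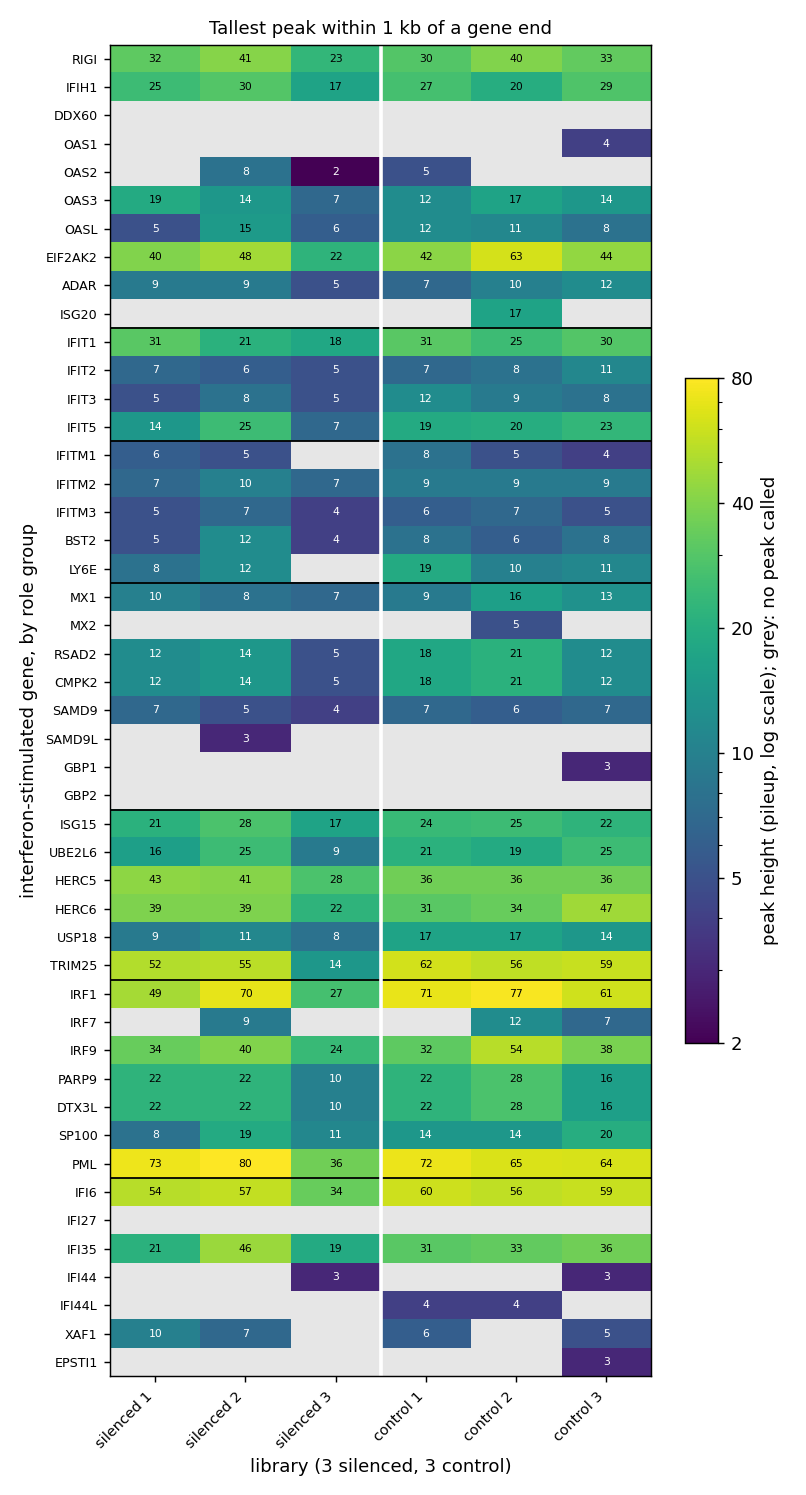
Height (pileup, colour on a log scale and printed number) of the tallest peak within 1 kb of a gene end for each of the 47 interferon-stimulated genes (rows, with black lines between role groups) in each of the 6 libraries (columns). Grey cells have no called peak. Rows such as IRF1, PML and IFI6 are filled in every library, with the lowest number in silenced replicate 3, and rows such as GBP2 and IFI27 are empty.

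For the members called in all 6 libraries, the median height (mean over the 6 libraries) was 19.2, against 33 over all 16993 genes called in all 6 and 36.2 over the protein-coding ones. Heights ran from 4 to 80. By fold enrichment, ranked within each library among the 16993 genes, the median member stood at 30.7% from the bottom in silenced and 30.2% in control libraries. The strongest peak was within 1 kb of an end of another gene as well in 11 of the 31. Among these, PARP9 and DTX3L share a peak with each other, and so do CMPK2 and RSAD2, so that each pair is 1 measurement. IFIH1 shares its peak with GCA, IFIT5 with LIPA, IRF9 with RNF31 and PML with STOML1. ADAR shares its peak with LOC124904427, IFIT2 with LOC105378419 and USP18 with LOC124905076. In each case the peak cannot be assigned to one of the genes.

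Sensors of viral RNA and RNA enzymes formed a group of 10, of which 6 were called in every library. EIF2AK2, the kinase PKR that halts translation on sensing double-stranded RNA, had the tallest gene-end peaks of the group, with heights of 40, 48 and 22 after silencing and of 42, 63 and 44 in controls. The silenced and control heights overlapped. RIGI and IFIH1 (MDA5), the 2 cytosolic RNA helicases that start interferon production, were open at heights of 23 to 41 and of 17 to 30. ADAR, which edits adenosine in double-stranded RNA, had heights of 5 to 12.

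The 3 OAS genes lie side by side on chromosome 12 and encode oligoadenylate synthetases, which activate RNase L. OAS3 had heights of 19, 14 and 7 after silencing and of 12, 17 and 14 in controls. OAS1 had a gene-end peak only in control replicate 3, with a height of 4, and OAS2 had one of 8 in silenced replicate 2, of 2 in silenced replicate 3 and of 5 in control replicate 1. OASL, a catalytically inactive relative on the same chromosome, was called in all 6 at heights of 5 to 15. Thus 1 of the 3 neighbours was called throughout by the gene-end rule. Inside the span of OAS2, away from its ends, a region at chr12:112992789-112993182 was called in all 6 libraries. Its heights were 4, 13 and 5 after silencing and 14, 7 and 12 in controls.

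DDX60, a helicase-like antiviral factor, and ISG20, an RNA exonuclease, show a limit of the gene-end rule. The RefSeq span of DDX60 reaches beyond its listed start site, and no peak lay within 1 kb of either end of the span. At the start site itself DDX60 had heights of 16, 17 and 8 after silencing and of 14, 18 and 19 in controls. ISG20 had a gene-end peak in control replicate 2 alone, and at its start site heights of 47, 51 and 30 after silencing and of 51, 65 and 42 in controls. Both start sites had a peak in every library, and those of ISG20 were taller than the gene-end peaks of EIF2AK2 in every library but control replicate 3.

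All 4 IFIT genes, which encode RNA-binding proteins that hold back translation of viral messages, were called in all 6 libraries. IFIT1 was the tallest, at 31, 21 and 18 after silencing and at 31, 25 and 30 in controls. IFIT2 was the lowest by its median, at 7, 6 and 5 after silencing and 7, 8 and 11 in controls. The IFIT2 heights of the groups met at 7, and those of IFIT1 overlapped. IFIT3 ranged from 5 to 12 and IFIT5 from 7 to 25.

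The genes acting at membranes had low peaks. IFITM1, IFITM2 and IFITM3, which block fusion of enveloped viruses, lie together on chromosome 11 and had heights of 4 to 10. Their sequences are alike, and how reads from similar copies were placed is not given in the sources used here. IFITM1 had no gene-end peak in silenced replicate 3, the library of lowest background coverage, and heights of 4 to 8 in the other 5. LY6E, which limits entry of coronaviruses, was also without one in silenced replicate 3, and stood at 8 and 12 in the other two silenced libraries and at 19, 10 and 11 in controls. BST2 (tetherin), which holds budding virus at the cell surface, was called in all 6 at 4 to 12.

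Of the 8 other antiviral effectors, 4 were called in every library, 3 in 1 library and 1 in none. The 2 myxovirus resistance GTPases lie next to each other on chromosome 21. MX1 had heights of 10, 8 and 7 after silencing and 9, 16 and 13 in controls. MX2 had a single gene-end peak, of height 5 in control replicate 2. SAMD9 and SAMD9L, neighbouring antiviral factors on chromosome 7, split likewise, with SAMD9 called in all 6 at heights of 4 to 7 and SAMD9L in silenced replicate 2 alone at 3. The guanylate-binding proteins GBP1 and GBP2, which attack pathogen-containing vacuoles, had 1 gene-end peak between them, of height 3 at GBP1 in control replicate 3. Within the span of GBP2 plus 5 kb, the tallest peaks reached 5, 4 and 3 in controls, 7 in silenced replicate 1 and 5 in silenced replicate 2, and silenced replicate 3 had none. CMPK2 and RSAD2 (viperin, which makes a chain-terminating nucleotide) shared a peak of 12, 14 and 5 after silencing and 18, 21 and 12 in controls.

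ISG15 and its conjugation genes were called in all 6 libraries at all 6 members. ISG15, the modifier, had heights of 21, 28 and 17 after silencing and of 24, 25 and 22 in controls, which overlap. The E2 enzyme UBE2L6 ran from 9 to 25, the ligase HERC5 from 28 to 43 and its relative HERC6 from 22 to 47. The ligase TRIM25, which also acts on RIG-I, had heights of 52, 55 and 14 after silencing and 62, 56 and 59 in controls, with every silenced library below every control library. USP18, which removes ISG15 and dampens interferon signalling at the receptor, was at 9, 11 and 8 after silencing and at 17, 17 and 14 in controls, again without overlap in height. The share of all genes without overlap in height was not counted. Over all genes called in all 6 libraries, the median height was 17 in silenced replicate 3 and 33 to 39 in the other libraries. By rank score, 5.09% of all genes tested were lower in every silenced library, TRIM25 among them but not USP18.

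The transcription factors and nuclear regulators included the tallest peaks of the group. IRF1, a factor induced by interferon gamma, had heights of 49, 70 and 27 after silencing and 71, 77 and 61 in controls. IRF9, a DNA-binding partner of STAT2, ranged from 24 to 54. IRF7, the factor that amplifies interferon alpha production, had a gene-end peak in silenced replicate 2 and control replicates 2 and 3, at 9, 12 and 7. That peak also lay within 1 kb of an end of PHRF1. Inside the span of IRF7 a region at chr11:613493-613884 was called in all 6 libraries. Its heights were 8, 12 and 7 after silencing and 14, 11 and 9 in controls. PML, the scaffold of PML nuclear bodies, was the tallest member by its median, at 73, 80 and 36 after silencing and 72, 65 and 64 in controls. SP100, another component of these bodies, ranged from 8 to 20. PARP9 and DTX3L, a mono-ADP-ribosyltransferase and its ubiquitin ligase partner, shared a peak of 10 to 28.

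The 7 remaining members split most widely. IFI6, a mitochondrial protein, was at 54, 57 and 34 after silencing and 60, 56 and 59 in controls. IFI35 was called in all 6 at 19 to 46. XAF1, a pro-apoptotic protein, was called at 5 to 10 in 4 libraries and not in silenced replicate 3 or control replicate 2. IFI44L had a gene-end peak in control replicates 1 and 2, each of height 4, and in no silenced library. Its neighbour IFI44 was called in silenced replicate 3 and control replicate 3, each at 3. EPSTI1, known from epithelial cells grown with stromal cells, had 1 gene-end peak, of height 3 at its far end in control replicate 3. Inside its span a region at chr13:42969578-42969921 was called in all 6 libraries, at 9, 9 and 4 after silencing and 10, 14 and 7 in controls. IFI27 had no gene-end peak. IFI27 did have a peak of 5 to 7 inside its span in all 6 libraries (chr14:94109176-94109852).

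No member had a gene-end peak throughout 1 group while lacking it throughout the other. Over all genes, 0.141% had a gene-end peak in the 3 silenced libraries alone and 0.193% in the 3 control libraries alone. IFI44L came to this pattern, control only, with a window of 2 kb and, in a separate run, without control replicate 3. The share of all genes with the pattern under those settings was not counted, and the shares above are for the main setting. Among the 372 regions made by merging the 6 lists inside member spans plus 5 kb, 1 was present in the 3 silenced lists and absent from the control lists, and 0 showed the reverse, where 0.130% and 0.200% of the 507440 regions of the genome followed these patterns. This region, singled out after its values were seen, lies near IFI27 at an end of IFI27L1 (chr14:94103497-94103750), with heights of 3, 3 and 2 in silenced replicates 1, 2 and 3, at or next to the lowest heights in the lists. Peaks overlapping member spans plus 5 kb averaged 138 ± 27.3 per silenced library (SD, n = 3) against 134 ± 24.8 per control library (SD, n = 3), less apart than the replicates.

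Whether the strongest gene-end peak differed in strength between the groups was tested on ranks. This peak need not be the same one in every library. At members such as IFIT2, IFITM3, BST2, MX1 and ADAR the tallest peak lay in different places in different libraries. For each of the 16993 genes with a gene-end peak in all 6 libraries, the largest fold enrichment found there was given its rank in the library, and the rank was turned into a normal score (1 unit is 1 SD of all genes), and scores were compared with limma. No member passed a Benjamini-Hochberg adjusted p of 0.05 (0 of 31, smallest adjusted p = 0.943 with limma), where 0.0118% of all genes tested did. At an unadjusted limma p under 0.05 there were 2 members (6.45%), HERC5 and PML, against 4.95% of all genes. Both were higher after silencing, as were 1.89% of all genes at that unadjusted p, and with peaks ranked by height neither was past it (0 of 31). The score was higher in silenced libraries at 13 members and lower at 18, with a median difference of −0.0259, and over all tested genes the median was 0.0130. With peaks ranked by height the split was 19 higher and 12 lower. The 95% intervals of the 31 differences had a median half-width of 0.530 units, and their outermost bounds were −0.904 and 1.04.

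The members with the highest differences were HERC5, PML and ISG15. HERC5 had heights of 43, 41 and 28 after silencing and 36, 36 and 36 in controls. Its rank place was 69.2%, 61.5% and 80.8% after silencing and 54.1%, 42.8% and 51.2% in controls, which do not overlap, and its score difference was 0.571 (SE 0.220, limma adjusted p = 0.943). The score difference of PML was 0.463 (SE 0.208, limma adjusted p = 0.943). That of ISG15 was 0.337 (SE 0.218, limma adjusted p = 0.943), and 0.205 without silenced replicate 3. The unadjusted limma p of HERC5 was 0.0644 without silenced replicate 3 and 0.0807 without control replicate 2. That of PML was 0.110 and 0.0729 without silenced replicates 1 and 2 in turn, and 0.0535 and 0.178 without control replicates 1 and 2 in turn. On heights alone, after centring each library at its median log2 height, the differences were 0.40 (SE 0.20) for HERC5 and 0.20 (SE 0.16) for PML on the log2 scale.

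The lowest differences were those of USP18, TRIM25 and the peak shared by CMPK2 and RSAD2. USP18 stood at 13.8%, 16.2% and 27.2% after silencing and at 36.6%, 31.4% and 23.3% in controls, with overlap in rank, and its score difference was −0.375 (SE 0.239, limma adjusted p = 0.943). TRIM25 gave −0.335 (SE 0.223, limma adjusted p = 0.943), and 0.0389 with a window of 2 kb, which takes in a further region upstream of it (chr17:56915741-56916207) with heights of 54, 47 and 27 after silencing and 44, 47 and 46 in controls. Without silenced replicate 3 the TRIM25 difference was −0.182. That of USP18 ran from −0.480 to −0.272 when each library was left out. With peaks limited to an FDR of 1e-05 the differences were −0.738 for USP18 and −0.722 for TRIM25 (limma adjusted p = 0.964 for both). With peaks ranked by height they were −0.245 and −0.375. The peak of CMPK2 and RSAD2 gave −0.324 (SE 0.258, limma adjusted p = 0.948), with −0.179 without control replicate 2 and −0.498 without control replicate 3. With a window of 500 bp RSAD2 gave −0.0420, and CMPK2 was not among the genes tested. By rank score, every silenced library was above every control library at 3 members, HERC5, PML and RIGI (9.68%, against 5.63% of all genes), and below at 1, TRIM25 (3.23%, against 5.09%).

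**Figure D2:**
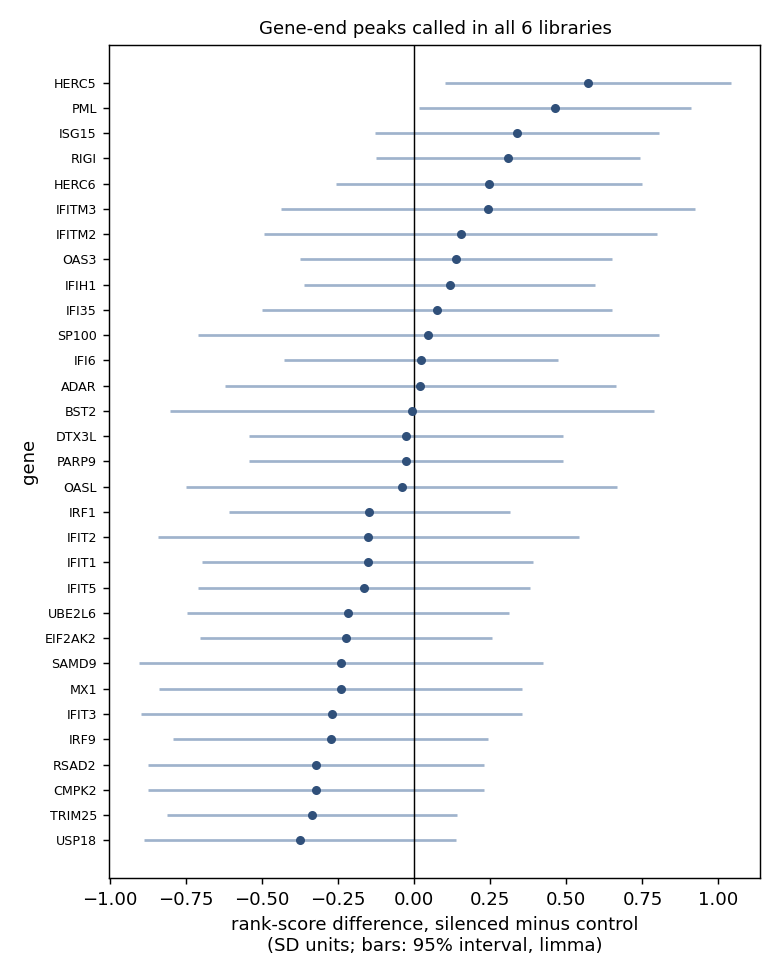
Difference in rank score (silenced minus control, in SD units of all 16993 tested genes) for the 31 interferon-stimulated genes with a gene-end peak in all 6 libraries. Points are limma estimates and bars their 95% intervals. The interval lies above 0 for HERC5 and PML before adjustment for the number of genes, and it includes 0 for the other 29.

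Peaks across the member spans were examined next. Of the 53 merged regions that overlap a member span plus 5 kb and were called in all 6 libraries, 33 had their midpoint within 1 kb of an end of some gene and 20 did not. None of the 53 passed an adjusted p of 0.05 in a limma fit of rank scores over 37284 regions (0 called among members and 0% of all regions). At an unadjusted limma p under 0.05 there were 4 (7.55%, against 4.68%). The 2 regions at the extremes were picked after their values were seen. A region upstream of PML (chr15:73992135-73992582) had heights of 30, 31 and 12 after silencing and 44, 48 and 48 in controls, a score difference of −0.709 (SE 0.284, limma adjusted p = 0.963). The gene-end peak of PML, described above, had the opposite sign. A region beyond IFI6, at an end of LINC02574 (chr1:27663048-27663661), had heights of 23, 20 and 19 after silencing and 14, 20 and 17 in controls, a difference of 0.818 (SE 0.291, limma adjusted p = 0.963).

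Promoter CpG content went with the number of libraries with a start-site peak, counted over both groups together and not for each group. The ratio of observed to expected CpG in the promoter window had a median of 0.424 in the 37 members with a sequence and of 0.763 in protein-coding genes. Among members with a peak within 1 kb of the start site in all 6 libraries (26), the median was 0.666, with a range of 0.250 to 1.06. Among those with such a peak in 0 to 2 libraries (7), it was 0.0744, and 6 of these 7 (OAS1, SAMD9L, GBP1, IFI27, IFI44 and IFI44L) were at or below 0.269. The seventh was EPSTI1, with a ratio of 0.776, ISRE letters 50 bases upstream of the start site and no peak in any library. The same split over protein-coding genes gave medians of 0.857 (9277 genes) and 0.299 (5198 genes). These are descriptions across genes, which are not independent.

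**Figure D3:**
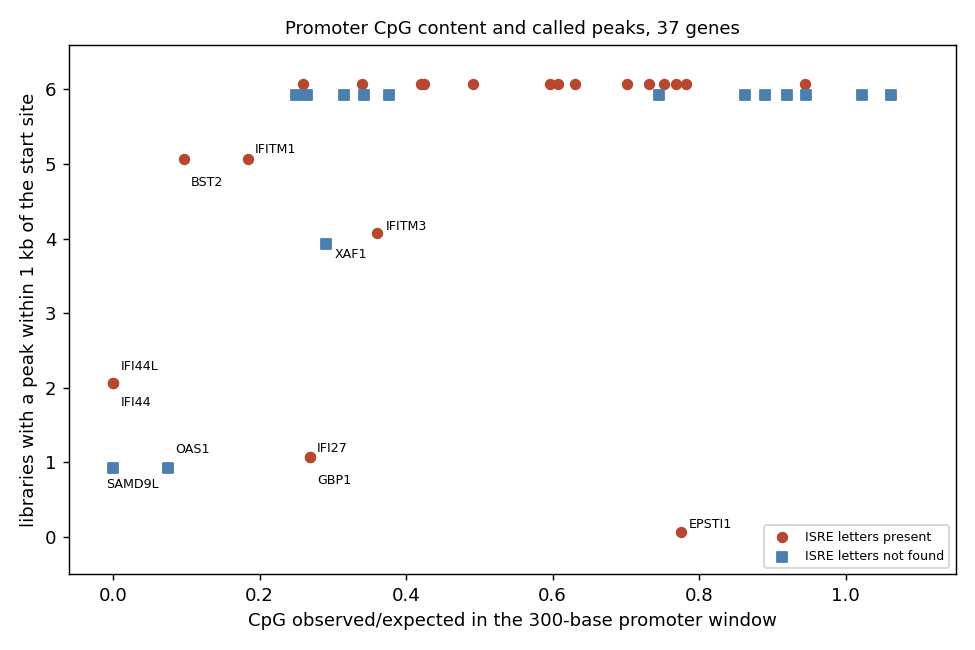
Number of libraries (of 6) with a peak within 1 kb of the start site against the observed/expected CpG ratio of the 300-base promoter window, for the 37 interferon-stimulated genes with a promoter sequence. Circles hold ISRE letters and squares do not, and the 2 kinds are shifted slightly apart vertically. IFI44 and IFI44L coincide at a ratio of 0, as IFI27 and GBP1 nearly do, and EPSTI1 is the one member with a high ratio and no peak.

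Open and closed members both held ISRE letters. All 6 libraries had a start-site peak at 14 of the 22 members with the letters (63.6%) and at 12 of the 15 without (80%). Over protein-coding genes the shares were 47.3% of 503 and 58.9% of 15338. In 12 of the 22 members (54.5%) ISRE letters lay inside a called peak in every library, in 6 they did so in 1 to 5 libraries, and in 4 they did so in none. For protein-coding genes with the letters, 36.0% were covered in every library and 47.9% in none. The 4 uncovered members were IFITM1, GBP1, IFI44L and EPSTI1. IFITM1 had its peaks mostly downstream of the start site, while its ISRE letters lie 40 and 6 bases upstream. IFIT3 had its peak in all 6 libraries, but the interval reached the ISRE letters in only 2, silenced replicate 2 and control replicate 2.

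**Figure D4:**
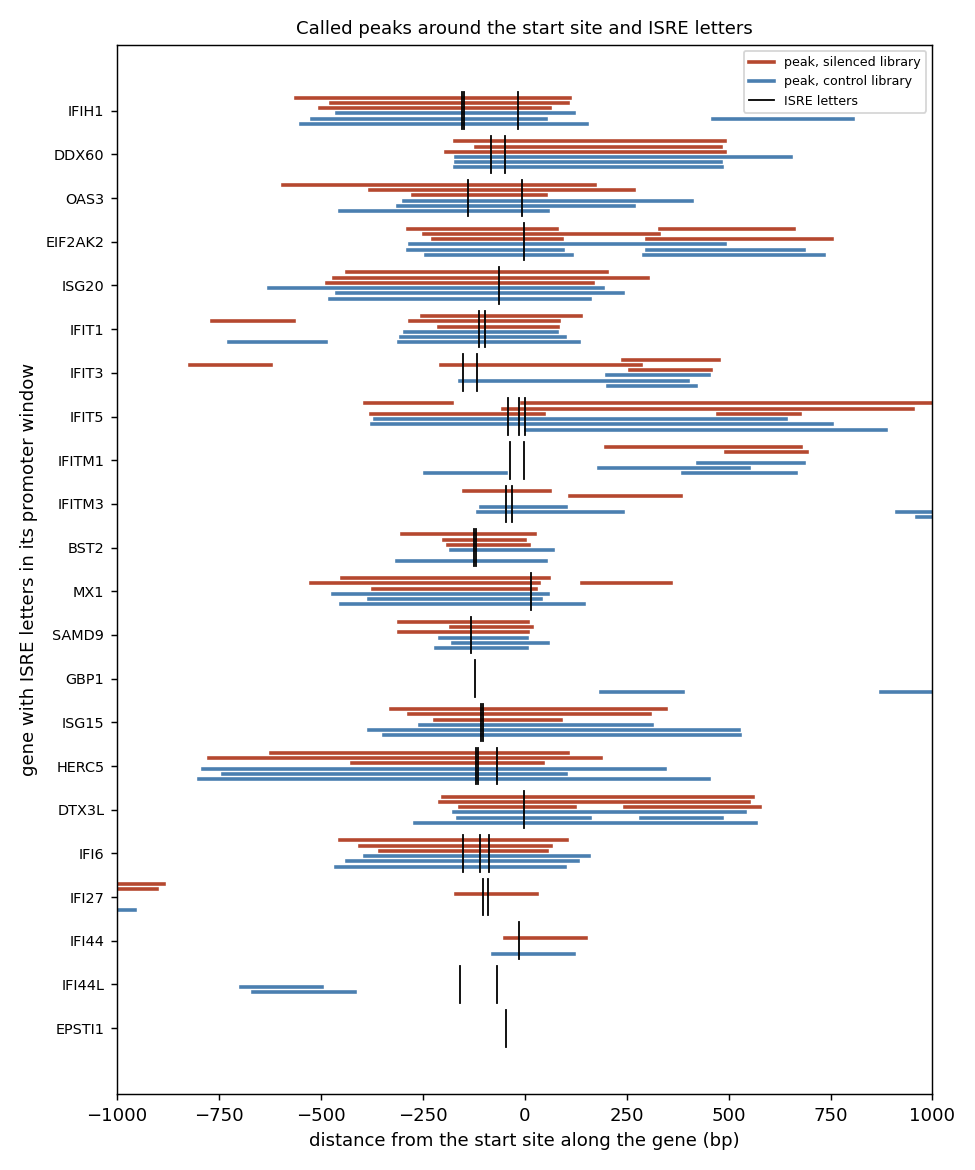
Called peaks (horizontal bars, 1 row per library, silenced in red and control in blue) within 1 kb of the start site of the 22 interferon-stimulated genes with ISRE letters in their promoter window, and the places of those letters (black ticks), by distance from the start site in bp. In 12 genes, such as ISG15, HERC5 and IFI6, a tick lies inside the bars of all 6 libraries, and in IFITM1, GBP1, IFI44L and EPSTI1 no bar covers a tick.

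The other genes of the pathway were examined from a list of 36. Of these, 25 had a gene-end peak in all 6 libraries (69.4%, against 58.0% of protein-coding genes). In 7 there was none (19.4%, against 16.5% of protein-coding genes). Of the 25, 0 passed the adjusted test (limma, smallest adjusted p = 0.943), and 0 had an unadjusted p under 0.05. The kinases JAK1, JAK2 and TYK2 and the factors STAT2 and STAT3 were called in every library. STAT2 had heights of 96, 120 and 59 after silencing and 99, 98 and 106 in controls. Of the receptors, IFNAR1, IFNAR2, IFNGR1, IFNGR2 and IL10RB were called in all 6, and IFNLR1, the specific chain of the receptor for interferon lambda, in silenced replicate 1 alone at a height of 3. All 9 sensing and adaptor genes, among them CGAS, STING1 and MAVS, and all 5 negative regulators, among them SOCS1 and SOCS3, were called in every library. None of the 10 interferon genes was called in all 6. IFNA1, IFNA2, IFNB1, IFNE, IFNK, IFNG and IFNL3 had no gene-end peak in any library, and IFNW1, IFNL1 and IFNL2 had peaks of 2 to 7 in 3 or 4 libraries.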

How the data were processed

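ATAC-seq libraries of 3 silenced and 3 control NCI-H1703 samples were analysed from 1 peak list per library, grouped by the treatment label. The submitters' processing notes name Trimmomatic 0.36, Bowtie2 2.2.6, Picard 2.8.2, MACS2 2.1.1, bedtools 2.25.0 and GRCh38, without settings. Whether reads were shifted for the transposase offset, and how duplicates and reads from similar gene copies were handled, is not given in the sources used here. Per the file headers, the deposited values are a fold enrichment over background (a ratio), a p-value and FDR per peak, and a pileup signal, here called height. None is normalised between libraries, and read depth is unknown. Background coverage was taken as the smallest value of (height + 1) / fold enrichment − 1 in a list.

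Only peaks on the autosomes, X and Y were used. Gene spans, start sites and promoter sequences came from RefSeq tables (GRCh38.p14). The largest fold enrichment within 1 kb of a gene end was ranked within each library, turned into normal scores and tested with limma 3.58.1 (R 4.3.3; mean-dependent prior; Benjamini-Hochberg over all genes, threshold 0.05), after the procedure was tested on simulated data. Merged regions (overlap of at least 1 bp) were tested alike. Counts over members were not tested. Heights are given for members at the extremes of the rank test and of each role group and for others by role, with members outside that rule named by their range or as chosen after their values were seen. Alternatives were peak filters, list length, windows, the value ranked, each library left out and the replicate number as a block. Values of some genes on the lists are not reported here. The members and lists were chosen with earlier results of these data known.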

Additional observations from a re-analysis of the deposited data

How the results depend on the processing

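Under every alternative run, 0 members and 0 member regions passed the adjusted rank tests, with 0 to 3 gene ends and 2 to 5 regions at an unadjusted p under 0.05 and a smallest adjusted limma p among member gene ends of 0.668 to 0.999. The 3 gene ends were of 17 members at the FDR limit, where 597 of 12571 genes had such a p. With peaks ranked by height it was 0 of 31 members and 814 of 16993 genes. The 5 regions were of 54 without silenced replicate 2, where 2462 of 38485 regions had such a p. Over all genes the 2 calls became 1 with peaks limited to an FDR of 1e-05, 1 when lists were cut to equal sizes and 0 with a window of 500 bp, a window of 2 kb or the start site only, and 1 to 3 when each library was left out. With the replicate block they were 3, and the block changed no call among members. Same-numbered libraries did not deviate together (correlations of −0.00363 to −0.00938 over 16993 genes), so the numbers were not used as pairs. The rank-score difference of TRIM25 reversed to 0.0389 with a window of 2 kb. The difference in members with a gene-end peak (silenced minus control) was −2.67, moved to −0.667 with the start site only (37 members), was −4 with the FDR limit and −1.33 with a window of 500 bp, and ran from −3.83 to −1.83 when each library was left out. Members called in one group only were 0, but 1 with a window of 2 kb and 0 to 1 when each library was left out, in each case IFI44L. The matching share of all genes was not counted under these settings. The difference in span peaks, 4.67, ran from −8.67 to 19.8 when each library was left out, and was −6.67 with the FDR limit, −10.7 with a height of at least 4 and −7.67 with equal lists. With equal lists the SDs were 7.02 (silenced) and 4.73 (control, n = 3 each), so the difference there was larger than either. Without silenced replicate 3, 33 members were called in every library in place of 31 (30.0% of all genes), and at an FDR of at most 1e-05 there were 17 in all 6 (21.1% of all genes) and 13 in none. Low heights limit what can be seen at members such as GBP1 and IFI44, whose peaks were at most 3.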
